A study of Mus musculus with 48 samples.

Results

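The 6 genes described here are *Nodal*, *Lefty1*, *Lefty2*, *Tdgf1*, *Gdf3*, and *Cer1*, ligands, a co-receptor, and secreted antagonists of Nodal signaling, and each was found by its symbol among 24264 transcripts in a count table of MEF reprogramming. Levels are given in CPM, a transcript's reads as a share of the transcript total in the library, multiplied up to counts per 1e6. All 6 passed the filter on low counts. The table holds 48 STRT libraries in 20 conditions, and STRT reads the 5′ ends of transcripts. MKOS and OKMS are polycistronic cassettes in which 1 doxycycline-inducible transcript encodes Myc, Klf4, Oct4, and Sox2 in the order of the letters, OKMS with a shorter form of Klf4. Each cassette was targeted together with a CAG-driven rtTA and an mOrange reporter into an intron of *Sp3* in TNG ESCs, in which GFP was inserted into 1 *Nanog* allele.

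The 8 sorted populations, with 3 libraries each, came from MKOS or OKMS MEFs of chimeric embryos, mixed with WT MEFs and cultured with doxycycline, vitamin C, and LIF for 10 or 15 days according to the labels (the methods give day 10). Cells that were CD44- ICAM1- and *Nanog*-GFP- are called 2NG-, CD44- ICAM1+ *Nanog*-GFP- cells 3NG-, and CD44- ICAM1+ *Nanog*-GFP+ cells 3NG+. MKOS cells were E-CAD+ in all 3 gates, and OKMS cells were E-CAD+ in all 3 gates or E-CAD- in the 2NG- and 3NG- gates. The other 12 conditions had 2 libraries each. They were WT, MKOS, and OKMS MEFs, MKOS and OKMS iPSCs either without doxycycline (-dox) or in 2i medium, D6 iPSCs with a single *piggyBac* MKOS integration, and 4 kinds of ESCs (the E14 line, the TNG parent, and TNG cells carrying MKOS or OKMS). The labels do not say whether libraries of a condition came from separate cultures, so p-values measure only the spread between these libraries.

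Nodal is a TGF-β family ligand that binds activin receptors together with the membrane-anchored co-receptor Cripto, which *Tdgf1* encodes, and signals through Smad2 and Smad3 with the DNA-binding partner Foxh1. GDF3 is a related ligand. LEFTY1 and LEFTY2 are secreted antagonists that are themselves induced by the pathway, which makes them a feedback loop, and CER1 is a secreted antagonist known from the anterior visceral endoderm and the early mesendoderm of the embryo. In mouse ESCs and the epiblast, *Nodal*, *Tdgf1*, *Gdf3*, and the *Lefty* genes are expressed, whereas fibroblasts do not use this branch of the pathway.

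On GRCm38, RefSeq places *Nodal* at chr10:61417972-61425338 on the plus strand, *Tdgf1* at chr9:110939608-110946158, *Gdf3* at chr6:122605403-122610087, and *Cer1* at chr4:82881751-82885151 on the minus strand. *Lefty2* (chr1:180893108-180899107) and *Lefty1* (chr1:180935022-180938401) lie on the same strand of chromosome 1. All reads of *Nodal*, *Lefty1*, *Gdf3*, and *Cer1* mapped uniquely, whereas 14.7% of the reads of *Lefty2* and 9.90% of those of *Tdgf1* had other positions in the genome and cannot be told apart from reads of close copies. Promoter windows of 300 bases, from 250 bases before to 50 after the RefSeq start on GRCm38.p6, were at hand for 3 of the 6 genes, *Nodal*, *Tdgf1*, and *Cer1*. Those of *Cer1* and *Tdgf1* are shown because *Cer1* was the gene confined to one cassette and *Tdgf1* the member called in more comparisons than any other. The Cer1 window is chr4:82885102-82885401 on the minus strand, the Tdgf1 window chr9:110946109-110946408 on the minus strand, both 5′ to 3′ with matches to the searched motifs in capitals.
Cer1: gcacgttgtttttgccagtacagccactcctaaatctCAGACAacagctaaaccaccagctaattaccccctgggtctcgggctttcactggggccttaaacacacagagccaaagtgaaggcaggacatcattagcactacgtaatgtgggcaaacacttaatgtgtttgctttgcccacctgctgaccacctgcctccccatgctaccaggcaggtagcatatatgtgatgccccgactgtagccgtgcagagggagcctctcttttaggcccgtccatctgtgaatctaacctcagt
Tdgf1: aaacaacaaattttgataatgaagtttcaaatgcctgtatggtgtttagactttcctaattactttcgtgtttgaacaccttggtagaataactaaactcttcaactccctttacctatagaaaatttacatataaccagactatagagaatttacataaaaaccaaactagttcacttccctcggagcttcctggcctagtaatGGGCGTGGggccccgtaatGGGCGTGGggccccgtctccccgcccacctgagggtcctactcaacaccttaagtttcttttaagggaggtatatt
The capitals mark a SMAD-type match (CAGACA) in *Cer1*, found in 21.0% of all 32851 promoter windows, and 2 KLF-type matches (GGGNGTGG) in *Tdgf1*, found in 17.6% of windows. Both strands were searched. The other motifs were TGTGNATT (3.60% of windows), GTCTAGAC (0.213%), ATGCAAAT (1.74%), CATTGT (12.6%), and TATAAA (13.6%), and none of the 7 had a match in the *Nodal* window. A match here is a description of letters and not a binding site.

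Libraries had 1429717 to 14174725 reads on transcripts, so 3 reads corresponded to 0.212 to 2.10 CPM. Floors and intervals reflect counting error alone, as PCR duplicates remain in the counts. Summed levels of 8 fibroblast genes were 4818 to 7354 CPM in the 6 MEF libraries and 17.7 to 126 CPM in iPSCs and ESCs, and those of 8 pluripotency genes were 6.26 to 31.0 CPM and 10137 to 22622 CPM, respectively. Replicate 3 of the OKMS E-CAD+ 2NG- and 3NG- and of both OKMS E-CAD- populations stood apart in *Cer1* and Nodal target genes. These 4 libraries are among 7 sorted libraries that the averages in a table of the study leave out without a stated reason, together with replicate 3 of MKOS 2NG- and 3NG- and replicate 2 of OKMS 3NG+. For the 6 genes, values without these 7 libraries are given where they change a call. For other genes of the pathway, calls lost without them are given, but calls gained are not.

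**Figure D1:**
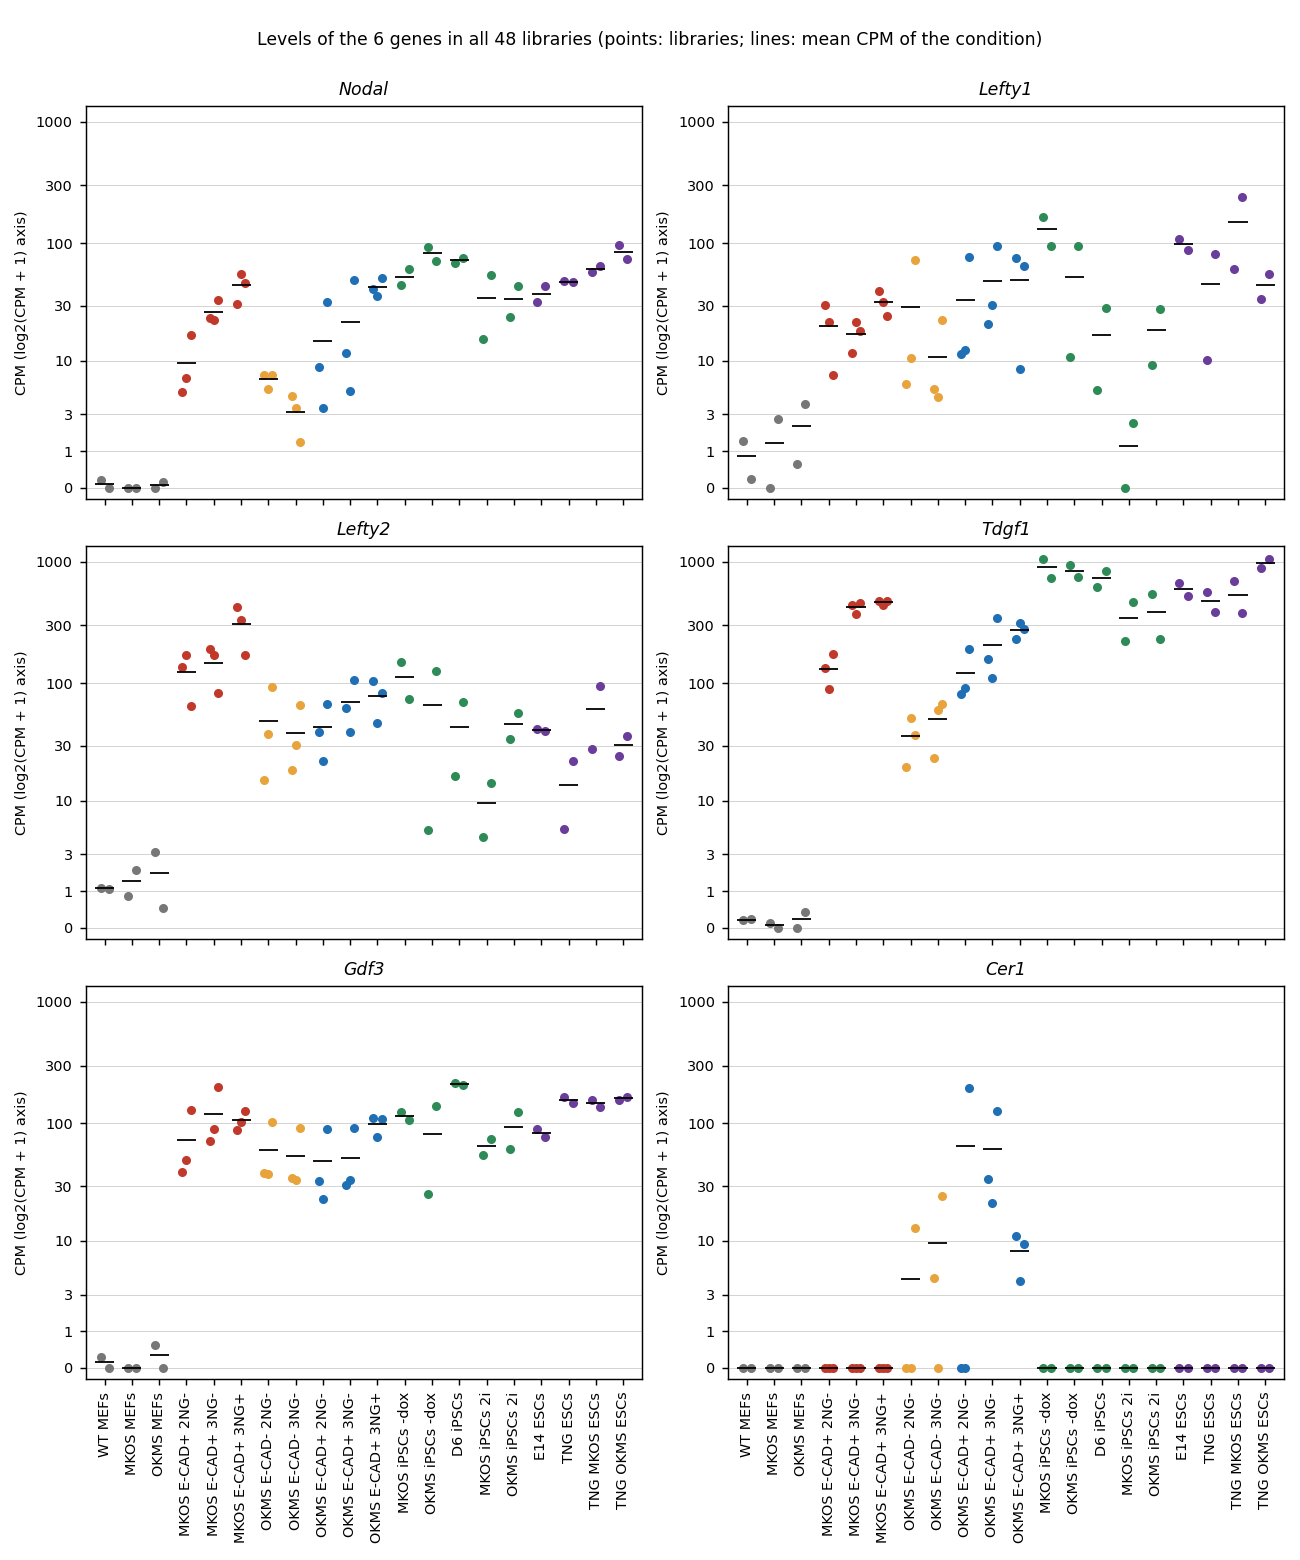
Levels of *Nodal*, *Lefty1*, *Lefty2*, *Tdgf1*, *Gdf3*, and *Cer1* in all 48 libraries, with 1 panel per gene. Each point is a library, each line the mean CPM of a condition, and the vertical axis is log2(CPM + 1) labeled in CPM. MEFs lie near 0 in every panel, and *Cer1* has reads in sorted OKMS populations only.

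MEFs had next to no RNA of these genes, and the first sorted populations had *Nodal*, both *Lefty* genes, *Tdgf1*, and *Gdf3* in every library. *Cer1* had reads in 1 of these 6 libraries, replicate 3 of OKMS E-CAD- 2NG- cells (13.0 CPM). *Nodal* was at 0 in 4 of 6 MEF libraries and at most at 0.151 CPM, *Tdgf1* was at most at 0.344 CPM, and *Gdf3* at most at 0.557 CPM. Both *Lefty* genes had a few reads in MEFs, up to 3.89 CPM for *Lefty1* and 3.16 CPM for *Lefty2*.

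From MKOS MEFs to MKOS E-CAD+ 2NG- cells, 5 of the 6 genes rose (edgeR quasi-likelihood test, FDR of at most 0.05), where 27.0% of all 15630 genes tested were called and 15.0% were called higher. *Tdgf1* was at 133, 88.9, and 175 CPM in the 3 libraries against 0 and 0.102 CPM in the MEFs, a log2 change of 10.51 ± 0.92 (SE, FDR 2.4e-11). *Gdf3* was at 39.7, 49.9, and 129 CPM and *Nodal* at 5.10, 6.94, and 16.8 CPM. Neither had a read in MKOS MEFs, and against a floor of 3 reads over that group their means were at least 347-fold and at least 45.8-fold higher (FDR 4.1e-08 and 3.2e-05). *Lefty2* rose by 6.56 ± 1.11 on the log2 scale (FDR 1.6e-05). *Lefty1* rose by 4.29 ± 1.39 (FDR 0.019), and this call was lost when replicate 1 of the MEFs, which had no *Lefty1* read, was left out (log2 change 2.95, FDR 0.22). In bulk RNA, more cells with a transcript and more RNA per cell cannot be told apart.

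From OKMS MEFs to OKMS E-CAD- 2NG- cells, the same 5 genes rose, with 21.8% of all genes called and 11.7% called higher. *Gdf3* reached 38.9, 37.8, and 103 CPM (log2 change 7.95 ± 1.05, FDR 3.7e-07), *Tdgf1* 19.9, 51.2, and 37.0 CPM (7.27 ± 0.82, FDR 1.4e-08), and *Nodal* 7.40, 5.49, and 7.34 CPM (6.26 ± 1.28, FDR 0.00033). *Lefty2* changed by 4.80 ± 1.04 (FDR 0.00061). *Lefty1* was at 6.07 and 10.6 CPM in 2 libraries and at 71.9 CPM in replicate 3, and its log2 change of 3.60 ± 1.22 (FDR 0.029) became 1.80 (FDR 0.33) without that replicate. It was also not called without OKMS MEFs replicate 1 (2.96, FDR 0.21) or replicate 2 (5.50, FDR 0.080), or without the 7 libraries (1.78, FDR 0.21). The median log2 change of the members with reads was 9.02 in MKOS and 6.76 in OKMS, or 6.56 and 5.53 with members that had no MEF read at their bound, against a median of 0 over all genes in both comparisons.

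The rest of the pathway was examined with 33 genes, of which 31 passed the filter on low counts. Of these, 3 were higher and 7 lower in MKOS 2NG- cells than in MKOS MEFs, and 4 were higher and 9 lower in OKMS E-CAD- 2NG- cells than in OKMS MEFs. Over all genes, 15.0% were called higher and 12.0% lower in MKOS, and 11.7% higher and 10.1% lower in OKMS. *Foxh1*, the DNA-binding partner of Smad2, had no read in any of the 6 MEF libraries and was at 16.5 to 25.8 CPM in MKOS 2NG- cells, at least 102-fold higher (FDR 5.7e-05), and at 8.24 to 42.4 CPM in OKMS E-CAD- 2NG- cells, at least 96.7-fold higher (FDR 8.3e-05). The genes called lower included *Fst*, which encodes the activin-binding protein follistatin (log2 changes -2.67 and -3.09), and the feedback inhibitors *Smad7* (-1.37 and -3.30) and *Pmepa1* (-1.59 and -3.28). Without the 7 libraries, the last 2 genes were called in OKMS but not in MKOS. Fibroblast markers fell in the same comparisons, 8 of 8 in MKOS and 7 of 8 in OKMS, and their part in these changes was not tested.

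*Tdgf1* was higher in E-CAD+ than in E-CAD- OKMS cells of both gates, and *Nodal* was called in the 3NG- gate. In the 2NG- gate, *Tdgf1* was at 82.0, 90.9, and 193 CPM in E-CAD+ libraries and at 19.9 to 51.2 CPM in E-CAD- libraries, and it was the 1 member called (log2 change 1.96 ± 0.41, FDR 0.0034), where 2.38% of all genes were called and 1.69% were called higher. The groups did not overlap. Here and below, such statements describe single libraries and are not tests. They stand without the share of all genes that did the same. The call ended without replicate 3 of the E-CAD+ cells (1.39, FDR 0.056) and without the 7 libraries (1.37, FDR 0.077). *Nodal* was at 8.69, 3.55, and 32.6 CPM in E-CAD+ and at 5.49 to 7.40 CPM in E-CAD- libraries, overlapping groups with a log2 difference of 1.40 ± 0.59 (FDR 0.24).

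In the 3NG- gate, 2 members were called, with 1.75% of all genes called and 1.59% called higher. *Tdgf1* was at 157, 111, and 348 CPM in E-CAD+ libraries against 23.6, 60.0, and 67.8 CPM in E-CAD- libraries (log2 change 2.17 ± 0.41, FDR 0.00095), and *Nodal* was at 11.8, 5.24, and 49.0 CPM against 4.62, 3.49, and 1.36 CPM (2.85 ± 0.65, FDR 0.0088). For both genes, every E-CAD+ library lay above every E-CAD- library. *Tdgf1* was also called without the 7 libraries, whereas *Nodal* then differed by 1.11 (FDR 0.57). *Nodal* was not called either without replicate 3 of E-CAD+ cells (1.48, FDR 0.41) or replicate 3 of E-CAD- cells (2.50, FDR 0.091), which had the highest and lowest levels. In a fit of the compared libraries alone, neither gene passed the threshold (FDR 0.075 for *Tdgf1* and 0.16 for *Nodal*). *Gdf3* did not follow this pattern, with differences of -0.07 ± 0.52 and 0.09 ± 0.52 in the 2 gates (FDR 1). Of the 8 pluripotency markers, 7 rose in each gate, *Zfp42* and *Esrrb* among them in both, and their part in the *Tdgf1* and *Nodal* changes was not tested. Among the 31 other pathway genes, 1 was called in each gate, *Tgif1*, which encodes a Smad corepressor. It rose by 1.19 ± 0.30 in the 2NG- gate (FDR 0.021) and by 1.43 ± 0.31 in the 3NG- gate (FDR 0.0048), and it was not called in either gate without the 7 libraries.

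Along the MKOS route, *Nodal* and *Tdgf1* differed most between 2NG- and 3NG- cells, although no member was called. *Tdgf1* was at 88.9 to 175 CPM in 2NG- and at 371, 444, and 462 CPM in 3NG- libraries, groups that did not overlap (log2 change 1.60 ± 0.39, FDR 0.053). *Nodal* was at 22.7, 23.7, and 33.6 CPM in 3NG- libraries, above the 3 libraries of 2NG- cells (1.39 ± 0.56, FDR 0.53). The edgeR quasi-likelihood test called 0.390% of all genes in this step and no member, 2 members had an unadjusted p under 0.05, and DESeq2 called 1, *Tdgf1*. Without the 7 libraries, *Nodal* (1.91, FDR 0.043) and *Tdgf1* (1.83, FDR 0.021) were both called.

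From 3NG- to 3NG+, the step at which *Nanog*-GFP appears, MKOS cells had *Nodal* at 31.3, 55.5, and 47.1 CPM, and *Lefty2* at 424, 332, and 171 CPM against 191, 171, and 83.5 CPM. The log2 differences were 0.94 ± 0.54 for *Nodal* and 1.20 ± 0.67 for *Lefty2* (FDR 0.40 and 0.37), and *Tdgf1* (0.30 ± 0.38) and *Gdf3* (0.01 ± 0.51) were also not called. With 1.58% of all genes called, no member was called by edgeR or DESeq2, and none had an unadjusted p under 0.05.

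No member was called between OKMS E-CAD+ 2NG- and 3NG- cells. Log2 differences of the 5 genes other than *Cer1* ran from -0.03 to 0.68 with standard errors of 0.39 to 0.87, and DESeq2 called none either, none had an unadjusted p under 0.05 in edgeR, and 0.0384% of all genes were called. *Cer1* differed by -0.22 ± 1.46. Without the 7 libraries it had no read in 2NG- cells and 34.4 and 21.7 CPM in 3NG- cells (FDR 0.099). From 3NG- to 3NG+, *Nodal* was at 41.4, 36.4, and 51.1 CPM in 3NG+ libraries (log2 difference 1.18 ± 0.56, FDR 0.21) and *Gdf3* at 110, 77.6, and 110 CPM against 30.3, 33.6, and 91.3 CPM (1.15 ± 0.52, FDR 0.19). For both genes, replicate 3 of 3NG- cells lay within the range of the 3NG+ libraries. No member was called by either tool in this step, 2 had an unadjusted p under 0.05, and 6.26% of all genes were called. Without replicate 3 of 3NG- cells, or without the 7 libraries, 3 members were called, *Nodal*, *Tdgf1*, and *Gdf3*, with log2 changes of 2.70, 1.23, and 2.08 without the 7 libraries (FDR 9.6e-05, 0.042, and 0.00093). This count stands without the share of all genes called in the same fits, so it shows only how far the count moved. The step itself was not shown to differ between the cassettes, since no member was called for the difference of the 3NG- to 3NG+ changes by either tool or had an unadjusted p under 0.05 (0.0256% of all genes called).

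**Figure D2:**
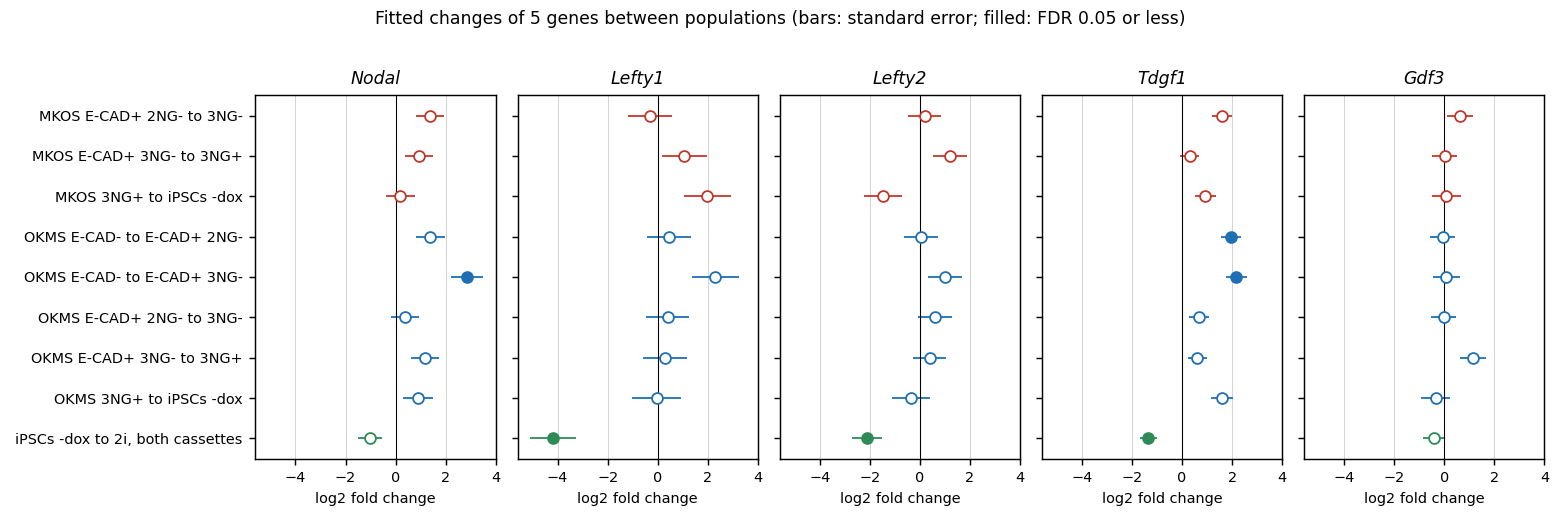
Fitted log2 fold changes of *Nodal*, *Lefty1*, *Lefty2*, *Tdgf1*, and *Gdf3* (horizontal axes) between the populations named on the left, with standard errors as bars. Filled points passed an FDR of 0.05. *Tdgf1* is filled for both OKMS E-CAD comparisons, and *Nodal* for OKMS E-CAD- to E-CAD+ in the 3NG- gate. *Lefty1*, *Lefty2*, and *Tdgf1* are filled for iPSCs -dox against 2i.

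*Cer1* differed most plainly between the cassettes. It had 4159 reads, all in 10 of the 15 sorted OKMS libraries, and none in the other 33 libraries with 251506793 reads on transcripts, which allows up to 0.0119 CPM over these libraries. In OKMS E-CAD+ cells, *Cer1* was at 0, 0, and 196 CPM in 2NG-, at 34.4, 21.7, and 128 CPM in 3NG-, and at 11.0, 4.20, and 9.30 CPM in 3NG+ libraries. In E-CAD- cells it was at 0, 0, and 13.0 CPM in the 2NG- gate and at 4.46, 0, and 24.5 CPM in the 3NG- gate. Replicate 3 was thus the highest library of each of the 4 Nanog-GFP- OKMS populations, and in both 2NG- populations it was the only one with reads.

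*Cer1* passed the filter on low counts only through sorted OKMS libraries, the only ones with reads. Its calls between the cassettes are therefore descriptions and not independent support for a difference. Compared with OKMS cells of the same gate, *Cer1* was lower in MKOS, the 1 member called in each *Nanog*-GFP- gate. Its mean was at least 523-fold lower in 2NG- cells (FDR 0.015, 5.07% of all genes called, 2.23% lower) and at least 492-fold lower in 3NG- cells (FDR 0.029, 2.17% of all genes called, 0.787% lower), counting the MKOS libraries at a floor of 3 reads per group. The first of these values rests on replicate 3 of OKMS 2NG- cells, without which neither group had a read. The 3NG- call ended without OKMS replicate 3 (FDR 0.066). Both calls also ended without any single MKOS library of their gate, at FDRs of 0.053 to 0.11, and the 3NG- call with DESeq2 (FDR 0.051). In 3NG+ cells the mean was at least 53.1-fold lower, which was not called (FDR 0.22) but was without the 7 libraries (FDR 0.020). No member was called there by edgeR or DESeq2 and 2 had an unadjusted p under 0.05, where 0.685% of all genes were called. Over the 3 E-CAD+ gates together, the mean was 0 CPM in MKOS and 45.0 CPM in OKMS (exact permutation of the cassettes within gates, two-sided p = 0.0025, adjusted over 2 such tests 0.0025). This test was chosen after the values were seen, and it treats the gates as independent, although libraries of the same number may not be. With the 3 gates of a replicate number averaged, 3 sets against 3 gave an exact p of 0.1, the smallest they can give. Without the 7 libraries the difference, MKOS minus OKMS, was -12.7 CPM (exact p = 0.017), and without any 1 of the 3 MKOS 2NG- libraries the exact p was 0.12.

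Some of the genes that Nodal signaling is known to induce in mesendoderm were highest in the same libraries. Those named here with single values were chosen after their values were seen. In replicate 3 of OKMS E-CAD+ 3NG- cells, *Eomes* was at 84.0 CPM, *T* (Brachyury) at 63.6 CPM, and *Lhx1* at 29.4 CPM, and in replicate 3 of OKMS E-CAD+ 2NG- cells they were at 54.6, 28.4, and 23.9 CPM. In replicates 1 and 2 of these populations, *Eomes* was at 2.26 to 13.0 CPM, *T* at 0 to 10.2 CPM, and *Lhx1* at 0 to 10.7 CPM. In sorted MKOS cells *Eomes* reached 9.09 CPM and *T* 1.12 CPM, and *Lhx1* and *Foxa2* had no read. *Gsc*, another such target, reached at most 3.25 CPM in sorted OKMS cells, in replicate 3 of E-CAD+ 2NG- cells, and 3.52 CPM in iPSCs in 2i.

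Summed over the 7 target genes *Eomes*, *Gsc*, *Mixl1*, *T*, *Foxa2*, *Fgf8*, and *Lhx1*, the level was 137 and 218 CPM in these 2 libraries, with no gene at 0, and 2.58 to 38.6 CPM in replicates 1 and 2. In the 6 OKMS E-CAD- libraries it was 0.379 to 71.3 CPM. In the 9 sorted MKOS libraries it was 0 to 9.09 CPM, with 4 to 7 of the 7 genes at 0, and in the 33 libraries outside sorted OKMS cells it was at most 9.09 CPM. Among the 7 genes, 1 was called between the cassettes, *Eomes* in the 2NG- gate, which was lower in MKOS (log2 difference -6.99 ± 1.81, FDR 0.016) and was not called without the 7 libraries. The list of 7 mesendoderm markers, which shares 5 genes with the targets and adds *Sox17* and *Hhex*, summed to 130 and 201 CPM in the same 2 libraries and to 0.406 to 16.4 CPM in sorted MKOS libraries. The 7 primitive endoderm markers *Gata4*, *Gata6*, *Sox17*, *Sox7*, *Dab2*, *Pdgfra*, and *Hnf4a* summed to 38.8 and 56.7 CPM in these libraries, with 1 or 2 of them at 0, to 9.35 to 25.0 CPM in replicates 1 and 2, and to 118 to 271 CPM in MEFs. The 8 pluripotency markers summed to 3223 and 5359 CPM in these 2 libraries and to 733 to 2240 CPM in replicates 1 and 2. Whether cells of another type or the pluripotency markers had a part in the *Cer1* level was not tested.

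**Figure D3:**
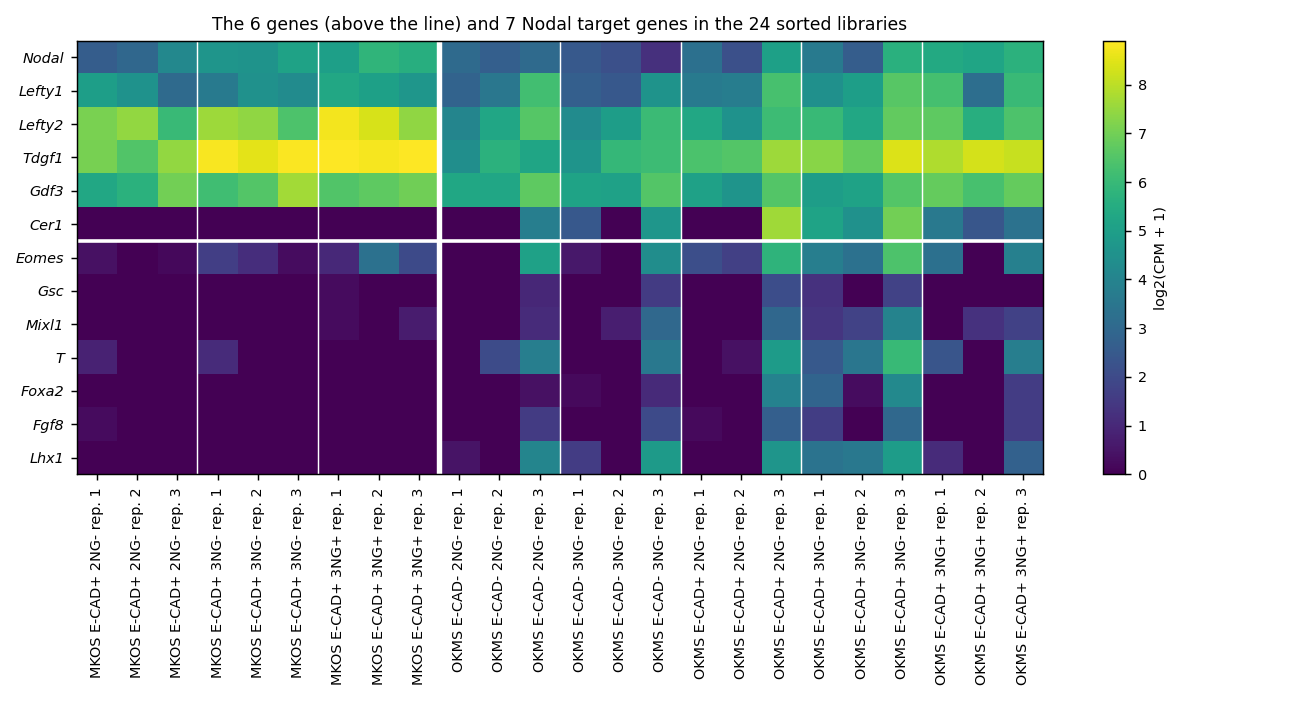
Levels of the 6 genes (above the horizontal line) and of 7 Nodal target genes in the 24 sorted libraries, MKOS to the left and OKMS to the right of the thick vertical line, as log2(CPM + 1) in color. *Cer1*, *Eomes*, and *T* stand out in replicate 3 of OKMS E-CAD+ 2NG- and 3NG- cells, and *Lhx1* reaches 27.8 CPM in OKMS E-CAD- cells. In sorted OKMS cells, *Gsc* reaches only 3.25 CPM and *Fgf8* only 7.06 CPM. *Cer1* has no read in MKOS, where *Eomes* reaches 9.09 CPM.

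Among E-CAD+ cells, the *Lefty* genes were divided differently in the cassettes. *Lefty2* was at 64.6 to 424 CPM in the 9 sorted MKOS libraries and at 22.2 to 107 CPM in the 9 OKMS E-CAD+ libraries, whereas *Lefty1* was at 7.45 to 39.8 CPM and at 8.39 to 94.4 CPM. Tested gene by gene, neither was called in any gate: *Lefty2* was higher in MKOS by 1.39 ± 0.67, 0.98 ± 0.67, and 1.79 ± 0.68 on the log2 scale in 2NG-, 3NG-, and 3NG+ cells (FDR 0.25, 0.53, and 0.25), and *Lefty1* differed by -0.93 ± 0.88, -1.63 ± 0.90, and -0.86 ± 0.88 (FDR 0.61, 0.39, and 0.74).

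The share of *Lefty2* among the reads of both genes does not depend on the depth of a library or on how far the pair is expressed. In E-CAD+ cells it separated the cassettes more sharply. It was 81.7% to 94.2% in the 9 sorted MKOS libraries and 46.5% to 84.8% in the 9 OKMS E-CAD+ libraries. Averaged over the gates, it was 88.3% in MKOS and 63.5% in OKMS, a difference of 24.8 percentage points (exact permutation of the cassettes within gates, two-sided p = 0.00025, the smallest that 8000 regroupings can give, adjusted over 2 tests 0.0005). The test was chosen after the values were seen. It treats the gates as independent, although libraries of the same replicate number may not be. With the gates of a replicate number averaged, the MKOS sets were at 86.4% to 89.5% and the OKMS sets at 52.0% to 70.1%, and 3 sets against 3 gave an exact p of 0.1, the smallest they can give. The difference was 24.4 points without the 7 libraries (exact p = 0.0028). The OKMS library with the highest share, replicate 2 of 3NG+ cells at 84.8% (95% exact interval 75.0% to 91.9%), had 79 *Lefty* reads and is among the 7. Within a gate, the E-CAD+ cells of the cassettes overlapped in none of 2NG-, 3NG-, or 3NG+. The 6 OKMS E-CAD- libraries, at 56.3% to 87.0%, were not part of these comparisons. The highest of them, replicate 2 of 3NG- cells, lay within the MKOS range.

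The share was lower in ESCs than in sorted cells and varied among iPSCs. It was 21.4% to 41.9% in the 8 ESC libraries, below all 24 sorted libraries. It was 47.9% and 43.9% in MKOS iPSCs -dox and 33.3% and 57.2% in OKMS iPSCs -dox, and it was 75.7% and 71.0% in D6 iPSCs. In the 3 libraries of iPSCs in 2i with at least 50 *Lefty* reads it was 66.7% to 85.7%. Since *Lefty2* counts include reads with other positions and PCR duplicates remain in the counts, the share compares libraries and is not a ratio of molecules.

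**Figure D4:**
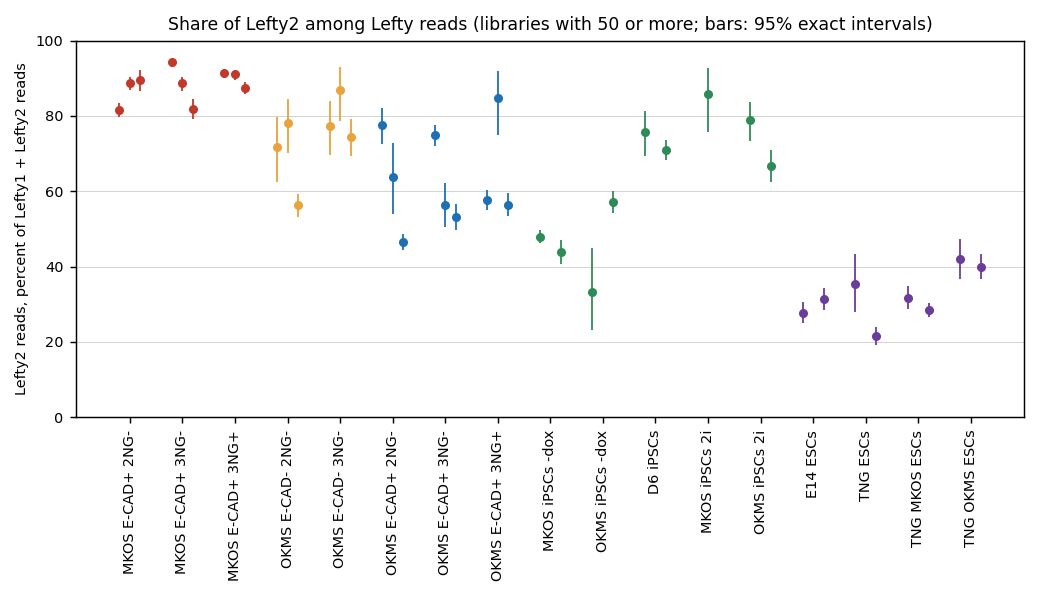
Share of *Lefty2* among *Lefty1* and *Lefty2* reads in percent (vertical axis) for each library with at least 50 such reads, by condition. Bars are 95% exact binomial intervals and cover counting error only. Sorted MKOS libraries lie at 81.7% to 94.2% and ESCs at 21.4% to 41.9%.

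The ligands and the co-receptor were not called between the cassettes. *Nodal* differed by -0.86 ± 0.56, 0.14 ± 0.55, and -0.10 ± 0.54 between OKMS and MKOS in 2NG-, 3NG-, and 3NG+ cells, *Tdgf1* by 0.00 ± 0.39, 0.92 ± 0.39, and 0.60 ± 0.39, and *Gdf3* by 0.41 ± 0.51, 1.07 ± 0.52, and -0.07 ± 0.51, none of which passed the threshold (lowest FDR 0.25). These comparisons share their libraries with the steps along each route. In the 3NG- gate the MKOS libraries of *Tdgf1*, at 371 to 462 CPM, lay above the OKMS libraries, at 111 to 348 CPM, and without the 7 libraries *Tdgf1* was called there (1.53, FDR 0.032) together with *Cer1*. Of the 31 other pathway genes, 2 were higher and 1 was lower in MKOS 2NG- cells, and 1 was higher in MKOS 3NG- cells. *Pcsk6*, which encodes the proprotein convertase PACE4 that cleaves the Nodal precursor, was at 25.5, 34.0, and 25.9 CPM in MKOS 2NG- cells against 3.75, 4.84, and 2.05 CPM in OKMS E-CAD+ 2NG- cells (2.98 ± 0.52, FDR 0.00024). It was at 22.4, 20.3, and 17.7 CPM against 6.51, 6.19, and 1.41 CPM in the 3NG- gate (1.96 ± 0.50, FDR 0.021), a call that ended without the 7 libraries. *Smad7* was higher in MKOS 2NG- cells by 1.86 ± 0.51 (FDR 0.021). In the OKMS 3NG- to 3NG+ step, *Pcsk6* rose by 1.62 ± 0.50 (FDR 0.044) while *Furin*, another convertase of this family, fell by 2.03 ± 0.64 on the log2 scale (FDR 0.048), and neither was called without the 7 libraries.

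*Cer1*, at 4.20 to 11.0 CPM in OKMS 3NG+ cells, had no read in OKMS iPSCs -dox, where its mean was at least 28.4-fold lower (FDR 0.36). *Tdgf1* was at 230, 316, and 282 CPM in OKMS 3NG+ cells and at 936 and 755 CPM in OKMS iPSCs -dox, without overlap (log2 difference 1.59 ± 0.42, FDR 0.069). In MKOS it was at 441 to 477 CPM in 3NG+ cells and at 1061 and 741 CPM in iPSCs -dox, also without overlap (0.92 ± 0.42, FDR 0.30). No member was called from 3NG+ to iPSCs in MKOS (2.14% of all genes called) or OKMS (0.614%) by edgeR or DESeq2, and 2 in each had an unadjusted p under 0.05. Without the 7 libraries, *Tdgf1* was called in OKMS (1.67, FDR 0.031). *Lefty1* and *Lefty2* had opposite signs in MKOS, with differences of 1.99 ± 0.96 and -1.47 ± 0.77 (FDR 0.33 and 0.38).

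In iPSCs pooled over both cassettes, 3 members were lower in 2i, medium with inhibitors of MEK and GSK3, than in the -dox libraries. Of all genes, 4.34% were called and 2.45% were called lower. *Lefty1* was at 164 and 95.3 CPM in MKOS iPSCs -dox and at 10.7 and 94.4 CPM in OKMS iPSCs -dox, against 0 and 2.42 CPM and 9.16 and 28.3 CPM in 2i (log2 change -4.18 ± 0.93, FDR 0.0044). *Lefty2* was at 151 and 74.7 CPM and at 5.36 and 126 CPM without doxycycline, against 4.54 and 14.5 CPM and 34.2 and 56.7 CPM in 2i (-2.12 ± 0.62, FDR 0.036). *Tdgf1* was at 741 to 1061 CPM in the 4 libraries without doxycycline and at 221 to 546 CPM in the 4 libraries in 2i (-1.35 ± 0.34, FDR 0.012).

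The 4 and 4 libraries overlapped for the *Lefty* genes but not for *Tdgf1*. In MKOS both *Lefty* genes were lower in 2i in every library, whereas in OKMS the -dox libraries lay on both sides of the 2i range for *Lefty2*. The changes were not shown to differ between cassettes: no member was called for the difference, 2 had an unadjusted p under 0.05, and 0.00640% of all genes were called. The differences, as OKMS minus MKOS, were 5.19 ± 1.81 for *Lefty1* (FDR 0.43) and 2.97 ± 1.21 for *Lefty2* (FDR 0.55). The calls depended on single libraries. Without replicate 1 of MKOS iPSCs in 2i none of the 3 was called, with FDRs of 0.052 for *Lefty1*, 0.18 for *Lefty2*, and 0.10 for *Tdgf1*. Without replicate 2 of OKMS iPSCs -dox *Lefty2* changed by -0.35 (FDR 0.92) and *Lefty1* by -3.07 (FDR 0.060), and without replicate 1 of MKOS iPSCs -dox or replicate 2 of OKMS iPSCs in 2i 1 member, *Lefty1*, was called. *Tdgf1* was also lost without replicate 1 of OKMS iPSCs -dox (FDR 0.052), and *Lefty2* without replicate 1 of OKMS iPSCs in 2i (FDR 0.16) or with the compared libraries alone (FDR 0.085). *Nodal* (-1.03 ± 0.47, FDR 0.24, but 0.032 in the fit without the 7 sorted libraries) and *Gdf3* (-0.41 ± 0.44, FDR 0.74) did not pass the threshold. Of the other pathway genes, the activin subunit gene *Inhbb* (-5.79 ± 1.54, FDR 0.020) and *Skil* (-1.31 ± 0.30, FDR 0.0060) were lower in 2i.

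Between ESCs and iPSCs of the same cassette, and between E14 and TNG ESCs, no member passed the threshold with the filter on low counts and all libraries in the fit. No member was called by edgeR or DESeq2 or had an unadjusted p under 0.05 between TNG MKOS ESCs and MKOS iPSCs -dox (0.307% of all genes called), TNG OKMS ESCs and OKMS iPSCs -dox (0.608%), or E14 and TNG ESCs (0.0448%). With the compared libraries alone, *Gdf3* was called between E14 ESCs (89.2 and 76.9 CPM) and TNG ESCs (164 and 149 CPM), which did not overlap. Without the filter, *Lefty2* was called in that comparison and between TNG OKMS ESCs and OKMS iPSCs -dox. The share of *Lefty2* also did not overlap between TNG MKOS ESCs (31.6% and 28.4%) and MKOS iPSCs -dox. The spread within conditions was wide for the *Lefty* genes. *Lefty1* was at 61.2 and 240 CPM in TNG MKOS ESCs and at 10.0 and 81.4 CPM in TNG ESCs, and *Lefty2* at 28.3 and 95.1 CPM and at 5.52 and 22.2 CPM. In each of these conditions the library with more *Lefty1* also had more *Lefty2*.

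Ordered by mean, *Nodal* was highest in TNG OKMS ESCs (85.2 ± 16.4 CPM, SD, n = 2) and OKMS iPSCs -dox (82.8 ± 15.6 CPM, n = 2), and *Tdgf1* in TNG OKMS ESCs (968 ± 109 CPM, n = 2) and MKOS iPSCs -dox (901 ± 226 CPM, n = 2). *Gdf3* was highest in D6 iPSCs (212 ± 3.99 CPM, n = 2), whose libraries did not overlap those of TNG OKMS ESCs, the next in order (161 ± 5.68 CPM, n = 2). *Lefty1* was highest in TNG MKOS ESCs (151 ± 126 CPM, n = 2). *Lefty2* had its 3 highest means in sorted cells, MKOS 3NG+ (309 ± 128 CPM, n = 3), 3NG- (149 ± 57.2 CPM, n = 3), and 2NG- (125 ± 55.1 CPM, n = 3), and *Cer1* had all of its reads there. Most neighbors in these orders had overlapping libraries, 16 of 19 neighboring pairs for *Nodal* and *Tdgf1*, 17 for *Lefty2* and *Gdf3*, and 18 for *Lefty1*. Between the last sorted population and the first MEFs the libraries did not overlap for *Nodal*, *Lefty1*, *Tdgf1*, or *Gdf3*. Sorted libraries of *Lefty2*, at 15.4 CPM or more, also lay above the MEFs, at 3.16 CPM or less, although other conditions came between them in its order.

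Across the 20 condition means, on the scale of log2(CPM + 1), *Nodal*, *Tdgf1*, and *Gdf3* followed each other (Pearson's r of 0.98 for *Nodal* with *Tdgf1*, 0.91 for *Nodal* with *Gdf3*, and 0.96 for *Tdgf1* with *Gdf3*), *Lefty1* and *Lefty2* did so less closely (0.75), and *Cer1* ran with none of them (-0.08 to 0.18). These values describe 20 points that share the contrast of MEFs with all other cells. By the same measure, the genes most like each member were *Mybl2* and *Dppa5a* besides *Tdgf1* for *Nodal* (0.98 each), *Ung*, *Hspbap1*, and *Pou5f1* for *Tdgf1* (0.98 to 0.99), *Sall4*, *L1td1*, and *Ccnb1ip1* for *Gdf3* (0.97 to 0.98), *Grb7*, *Eras*, and *Gar1* for *Lefty1* (0.89 to 0.92), and *Qtrt1* and *Trh* for *Lefty2* (0.90 to 0.91). For *Cer1* they were *Samd3*, *Fgf8*, and *Krt6b* (0.97 to 1.00), whose highest condition means were 11.1, 3.04, and 15.4 CPM. With Spearman's rho, at most 1 of the 3 genes most like a member by Pearson's r was again among its 3 most alike, so these names depend on the measure.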

How the data were processed

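Read counts of 48 STRT libraries were used as deposited. Per the labels, the authors processed reads with Bowtie 0.12.7 and mm10, whereas their methods name mm9. In the file, 99.1% of the symbols shared with RefSeq lay inside the gene, within 200 bases, on GRCm38. Counts include reads with several positions, assigned to the most 5′ exon, and PCR copies. Repeats and spike-in RNAs were left out of library totals. Groups and replicate numbers came from the labels.

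TMM factors were computed with edgeR 4.0.16 (R 4.3.3), genes were filtered by condition with filterByExpr, and all 48 libraries entered a single quasi-likelihood fit with 20 condition means. A Benjamini-Hochberg FDR of at most 0.05 over 15630 genes was called. DESeq2 1.42.0 served as an alternative. Other alternatives were other scaling, no filter, the compared libraries alone, the replicate block, libraries left out, and, for likeness, Spearman's rho and another pseudocount. A separate check used simulated counts of 15270 genes for the MKOS 3NG- and 3NG+ libraries alone, with 200 genes changed 4-fold. There, 156 were called, 149 of them changed. It does not measure recovery or error in the fit of all 48 libraries. Figures were drawn with Matplotlib 3.10.9 in Python 3.11.15.

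The members and gene lists were chosen with earlier results of these data known. The named genes were the members, up to 3 called genes per pathway list and comparison with the largest changes, and the 3 genes most like each member. Target and marker genes given with single values outside this rule were chosen after their values were seen. Some genes of these lists are not reported here.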

Additional observations from a re-analysis of the deposited data

How the results depend on the processing

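The counts of called members depended mostly on the filter and on single libraries. With no filter on low counts, edgeR called 2 members in MKOS 2NG- to 3NG-, 2 in MKOS 3NG- to 3NG+, 3 in MKOS 3NG+ to iPSCs, 3 and 5 in OKMS E-CAD- to E-CAD+ 2NG- and 3NG-, 3 in OKMS 3NG- to 3NG+, 2 in OKMS 3NG+ to iPSCs, 3, 5, and 2 between the cassettes in 2NG-, 3NG-, and 3NG+, 2 for the cassette difference of the 2i change, 1 in TNG OKMS ESCs to OKMS iPSCs, and 1 in E14 to TNG ESCs, while calls over all genes rose as well (for example from 61 to 237 in MKOS 2NG- to 3NG-). DESeq2 called 1 in MKOS 2NG- to 3NG- and 0 between the cassettes in 3NG-. With the compared libraries alone, 1 was called in MKOS 2NG- to 3NG-, MKOS 3NG+ to iPSCs, OKMS 3NG- to 3NG+, and E14 to TNG ESCs, 2 in OKMS 3NG+ to iPSCs and between the cassettes in 3NG+, and 0 in OKMS E-CAD- to E-CAD+ 3NG- and between the cassettes in 2NG-. Without the 7 libraries, 2 were called in MKOS 2NG- to 3NG-, 0 and 1 in OKMS E-CAD- to E-CAD+ 2NG- and 3NG-, 3 in OKMS 3NG- to 3NG+, 1 in OKMS 3NG+ to iPSCs, and 0, 2, and 1 between the cassettes in 2NG-, 3NG-, and 3NG+. The causes were not tested. Most of these counts stand without the calls over all genes, so they show only how far a count moved. Without 1 library at a time, counts ran from 0 to 1 between the cassettes in 2NG- and in 3NG-, from 1 to 2 in OKMS E-CAD- to E-CAD+ 3NG-, from 0 to 1 in 2NG-, from 0 to 3 in OKMS 3NG- to 3NG+, from 0 to 3 for 2i, and from 0 to 1 for the cassette difference of the 2i change. For the MEF comparisons the counts ran from 4 to 5. No called fold change turned its sign under the alternatives run. Calls over all genes also depended on the tool: DESeq2 called 105 genes against 61 in MKOS 2NG- to 3NG-, 609 against 247 in MKOS 3NG- to 3NG+, 1481 against 979 in OKMS 3NG- to 3NG+, 416 against 274 in OKMS E-CAD- to E-CAD+ 3NG-, 556 against 339 between the cassettes in 3NG-, and 498 against 95 in TNG OKMS ESCs to iPSCs.

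The libraries share replicate numbers, but the labels do not say that a number marks a shared experiment. Deviations of 84 same-numbered pairs correlated at 0.0939 on average (27 of them over 0.1), against -0.0468 for 168 other pairs, and 21 of 24 sorted libraries correlated best with their own number. With the replicate block, 1 member was called in MKOS 2NG- to 3NG- (*Tdgf1*), OKMS 3NG- to 3NG+ (*Gdf3*), OKMS 3NG+ to iPSCs (*Tdgf1*), and between the cassettes in 3NG+ (*Cer1*). These counts, too, stand without the calls over all genes.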
